A study of Mus musculus with 32 samples.

Results

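The genes described here are the glucocorticoid receptors, the enzyme that regenerates their ligand, and 4 genes that glucocorticoids induce. Every probe whose annotated symbol was Nr3c1, Nr3c2, Hsd11b1, Fkbp5, Sgk1, Tsc22d3 or Cdkn1a was taken, which gave 12 of the 25697 probes of the Illumina Mouse Ref8 v2 array. Of the 7 genes, 6 had a probe, of 16593 annotated genes in all, and Nr3c2, the mineralocorticoid receptor, was not among the annotated symbols. Of the 12 probes, 10 were detected in at least 6 of the 32 arrays and were tested. The other two, 1 of the 4 Hsd11b1 probes and 1 of the 3 Cdkn1a probes, were detected in 0 of 32 arrays. Each array measured the whole brain of 1 naïve male mouse. The R2 congenic (n = 6) carries a 10.2 Mb B6 donor segment of chromosome 1 on the D2 background and was set against the D2 (DBA/2J) strain (n = 6). The R8 congenic (n = 10) carries a 1.1 Mb D2 segment of the same chromosome on the B6 background and was set against the B6 (C57BL/6J) strain (n = 10). The 12 arrays of R2 and D2 mice were also set against the 20 arrays of R8 and B6 mice, which compares the D2 background with the B6 background over both alleles of the segment. A difference between backgrounds takes in the whole genome outside the segment, and in whole brain a change in the number of cells of a type and a change in the RNA of each cell cannot be told apart.

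Glucocorticoids bind 2 related receptors in the brain. Nr3c1 encodes the glucocorticoid receptor, which is held in the cytoplasm by Hsp90 and its co-chaperones until the hormone binds and then enters the nucleus and acts on DNA. Hsd11b1 encodes the dehydrogenase that turns an inactive metabolite back into corticosterone inside cells and so raises the hormone that reaches the receptor. Fkbp5, a co-chaperone of Hsp90, lowers the affinity of the receptor for hormone and is itself induced by it, which closes a short feedback loop. Sgk1 is a serine/threonine kinase that acts on ion channels and transporters. Tsc22d3, also called GILZ, is a leucine zipper protein that binds and restrains inflammatory transcription factors. Cdkn1a is an inhibitor of cyclin-dependent kinases that p53 induces as well as glucocorticoids.

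The receptor binds DNA at a glucocorticoid response element, a pair of 6-base arms that face each other across 3 bases. The letters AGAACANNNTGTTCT for the full element, and TGTTCT on either strand for 1 arm, which the full element contains, were searched in RefSeq windows (GRCm38.p6) that reach from 250 bases before to 50 bases after an annotated transcript start. Of the members, 6 genes had 14 such windows, and Nr3c1 was not looked up. The arm was found in 4 of the 14 windows, all among the 6 of Sgk1 and the 3 of Tsc22d3, and in 19% of all 32851 windows of this length. The full element was found in 1 window, of Sgk1, and in 3 of all windows. No window of Fkbp5, Hsd11b1, Cdkn1a or Nr3c2 held these letters. The 250 bases before the start are printed for the Sgk1 window with the full element (chr10:21993640-21993889, plus strand) and for the Tsc22d3 window with 1 arm (chrX:140600523-140600772, minus strand). Sgk1 and Tsc22d3 were both lower on the D2 background below, and so were Hsd11b1 and Fkbp5, whose windows held no arm. Whether these letters bear on the signals was not tested. Capitals mark each arm, and the full element of Sgk1 runs from base -189 to base -175 before the start.
Sgk1: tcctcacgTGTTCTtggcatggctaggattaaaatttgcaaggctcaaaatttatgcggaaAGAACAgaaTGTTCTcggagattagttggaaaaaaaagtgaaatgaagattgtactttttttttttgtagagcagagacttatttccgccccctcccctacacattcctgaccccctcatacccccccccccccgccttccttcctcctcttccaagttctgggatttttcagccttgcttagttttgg
Tsc22d3: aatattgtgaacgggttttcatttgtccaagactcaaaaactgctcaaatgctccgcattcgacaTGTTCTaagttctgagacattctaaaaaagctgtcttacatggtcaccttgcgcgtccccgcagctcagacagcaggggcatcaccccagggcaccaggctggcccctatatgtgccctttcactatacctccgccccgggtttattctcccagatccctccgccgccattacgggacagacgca

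The median raw signal of an array lay between 380.2 and 578.5, and between 10834 and 12283 probes were detected per array at a detection p under 0.01. Log2 signals were normalized over all 32 arrays, and the correlation of 2 arrays lay between 0.956 and 0.994. Neuron genes such as Syt1, Gad1 and Map2 were detected in all arrays. D2 replicate 1 stood apart for several members, with the highest Nr3c1 signal of all arrays and the lowest Fkbp5 signal, and values without it are given below where it moved them most.

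Nr3c1 was measured by 1 probe and varied more among mice of a strain than most genes. Its log2 signal (lowest, median, highest) was 8.98, 9.18 and 9.59 in R2 and 8.99, 9.21 and 10.07 in D2 brains, against 8.77, 9.00 and 9.42 in R8 and 8.58, 9.09 and 9.70 in B6 brains. The 4 strains overlapped, and 1 of 12 D2-background arrays, D2 replicate 1, lay above every B6-background array. The within-strain SD of 0.30 exceeded that of 94% of tested probes. The D2 background minus B6 background difference was 0.19 ± 0.10 (SE; limma, adjusted p = 0.178), with a 95% interval of -0.02 to 0.40, and Nr3c1 did not pass the test. Without D2 replicate 1 the difference was 0.12 (limma, adjusted p = 0.387).

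Hsd11b1 was lower on the D2 background by all 3 of its detected probes. The brightest, ILMN_3115917, had a log2 signal (lowest, median, highest) of 11.82, 12.17 and 12.29 in R2 and 11.89, 12.16 and 12.68 in D2 brains, against 12.34, 12.61 and 12.72 in R8 and 12.44, 12.59 and 12.67 in B6 brains. By each of the 3 probes, 10 of 12 D2-background arrays lay below every B6-background array, and 1 of the 12 lay above the median of the B6-background arrays. That array was D2 replicate 1, at 12.68 for ILMN_3115917. The differences were -0.40 ± 0.06, -0.48 ± 0.06 and -0.44 ± 0.06 (SE; limma, adjusted p = 9.8e-07, 1.1e-07 and 4.5e-07), which are 1.32-fold, 1.40-fold and 1.35-fold lower signals. The deviations of the 3 probes from their strain means followed each other across arrays, with r between 0.88 and 0.90. Hsd11b1 lies on chromosome 1 (GRCm38.p6 chr1:193221640-193264045), the chromosome of both donor segments, but outside both segments as the study mapped them.

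**Figure D1:**
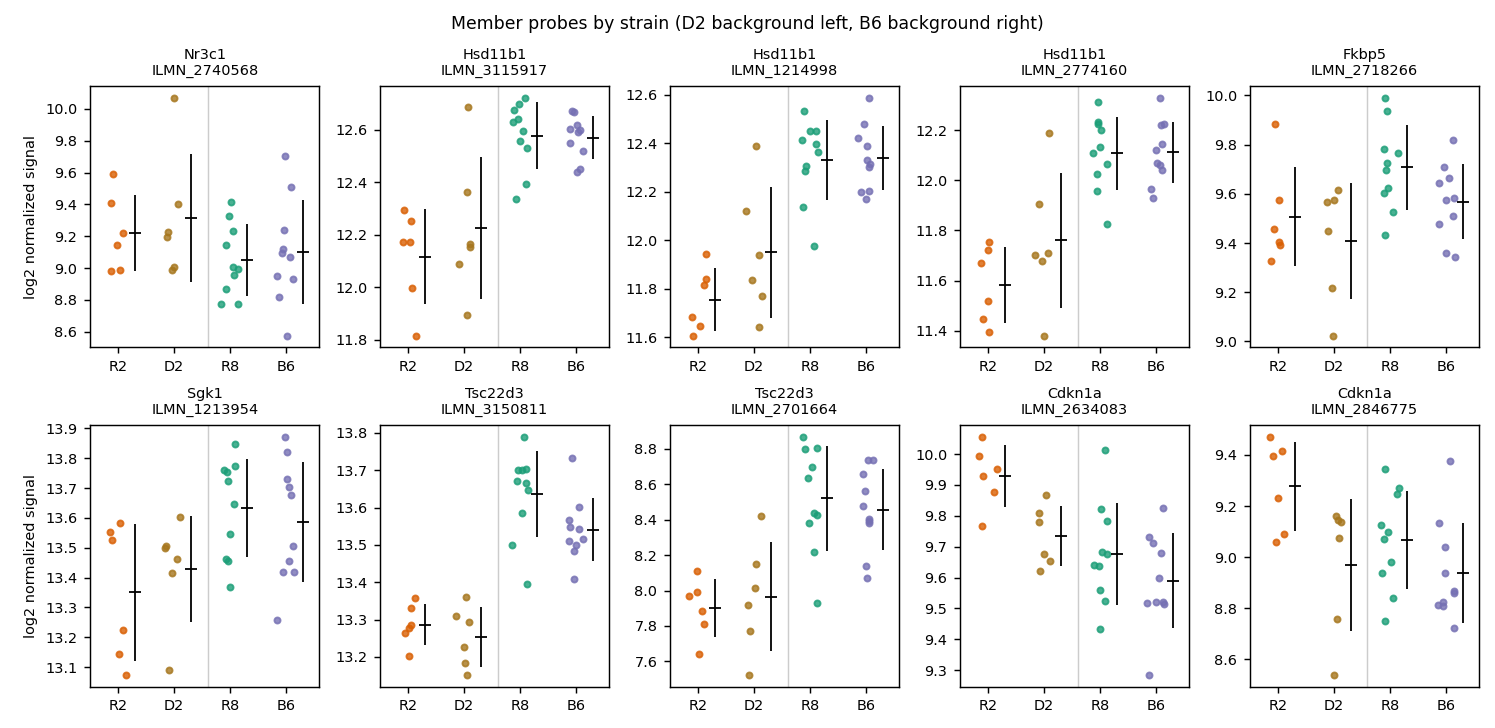
Log2 normalized signal of the 10 tested probes in each array, with R2 and D2 left of R8 and B6 in every panel; the black mark and bar give mean ± SD. The R2 and D2 points lie below all R8 and B6 points for Tsc22d3 ILMN_3150811, and D2 replicate 1 is the highest D2 point for Nr3c1 and for the 3 Hsd11b1 probes.

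Tsc22d3 separated the backgrounds completely by 1 of its 2 probes. For its bright probe ILMN_3150811 the log2 signal (lowest, median, highest) was 13.20, 13.28 and 13.36 in R2 and 13.15, 13.26 and 13.36 in D2 brains, against 13.40, 13.67 and 13.79 in R8 and 13.41, 13.53 and 13.73 in B6 brains. All 12 D2-background arrays lay below all 20 B6-background arrays. The share of all tested probes that separate in this way is not given here. Among the genes listed further below, Bhlhe40, C1qb, C1qc, Map3k6 and Hbb-b2 also did not overlap between backgrounds. The difference was -0.32 ± 0.04 (SE; limma, adjusted p = 9.5e-09), a 1.25-fold lower signal, and the within-strain SD of 0.09 was among the smallest, with 6.38% of tested probes lower. By the dim probe ILMN_2701664 the backgrounds overlapped, and 6 of 12 D2-background arrays lay below every B6-background array. The dim probe passed detection on 1 of the R2 and 4 of the D2 brains, against all 10 brains of R8 and all 10 of B6. Its fitted difference was -0.55 ± 0.09 (SE; limma, adjusted p = 7.0e-06), a size taken against a D2 background on which most arrays were not above detection, so it adds little to the bright probe. The deviations of the 2 probes from strain means were weakly related (r = 0.17). The gene is X-linked (GRCm38.p6 chrX:140539528-140600522).

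Sgk1 was lower on the D2 background, with more overlap. Its log2 signal (lowest, median, highest) was 13.07, 13.38 and 13.58 in R2 and 13.09, 13.48 and 13.60 in D2 brains, against 13.37, 13.69 and 13.85 in R8 and 13.26, 13.59 and 13.87 in B6 brains. Of the 12 D2-background arrays, 4 lay below every B6-background array and all 12 lay below the B6-background median. The difference was -0.22 ± 0.07 (SE; limma, adjusted p = 0.013), a 1.16-fold lower signal, and it passed the test without any 1 array.

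Fkbp5 showed the smallest called difference. Its log2 signal (lowest, median, highest) was 9.33, 9.43 and 9.88 in R2 and 9.02, 9.51 and 9.62 in D2 brains, against 9.43, 9.71 and 9.99 in R8 and 9.34, 9.58 and 9.82 in B6 brains. The strains overlapped, although 11 of 12 D2-background arrays lay below the B6-background median. The difference was -0.18 ± 0.07 (SE; limma, adjusted p = 0.036), a 1.13-fold lower signal. The call was lost without any 1 of 10 arrays, namely D2 replicates 1 and 2, R2 replicates 1, 4, 5 and 6, R8 replicates 9 and 10, and B6 replicates 4 and 10, with differences between -0.18 and -0.14 and adjusted p between 0.051 and 0.087. It was also lost under 5 of the other alternatives.

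Cdkn1a was the only member with a call in the other direction. ILMN_2634083 had a log2 signal (lowest, median, highest) of 9.77, 9.94 and 10.06 in R2 and 9.62, 9.73 and 9.87 in D2 brains, against 9.43, 9.66 and 10.01 in R8 and 9.28, 9.56 and 9.83 in B6 brains. The difference was 0.20 ± 0.05 (SE; limma, adjusted p = 0.0033), a 1.15-fold higher signal, and 9 of 20 B6-background arrays lay below every D2-background array. The second probe, ILMN_2846775, had a difference of 0.12 ± 0.07 (SE; limma, adjusted p = 0.232) with an interval of -0.03 to 0.27 and did not pass. The deviations of the 2 probes from strain means were unrelated (r = -0.03), so the call rests on 1 of 2 detected probes.

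In all, 8 of the 10 tested probes and 5 of the 6 measured genes differed between backgrounds, 7 probes lower and 1 higher on the D2 background. The 7 lower probes include the dim Tsc22d3 probe ILMN_2701664, which was detected on 1 of 6 R2 and 4 of 6 D2 arrays. The call of the gene Tsc22d3 rests on its bright probe. Of all 12351 tested probes, 28% were called in this contrast, 12.9% lower and 15.1% higher. The median difference of the 10 probes, of which Hsd11b1 has 3 and Tsc22d3 has 2, was -0.27, and that of all 12351 tested probes was 0.02. Between the parental strains alone, D2 minus B6, 5 of the 10 probes were called, where 20.4% of all probes were. They were the 3 probes of Hsd11b1 (-0.34, -0.39 and -0.35) and both of Tsc22d3 (-0.29 for the bright and -0.49 for the dim probe). Sgk1 (-0.16), Fkbp5 (-0.16) and Cdkn1a ILMN_2634083 (0.14) kept their direction there without passing, with adjusted p of 0.280, 0.249 and 0.178. Probe sequences were not used here, so a variant under a probe and a difference in mRNA cannot be told apart between backgrounds.

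**Figure D2:**
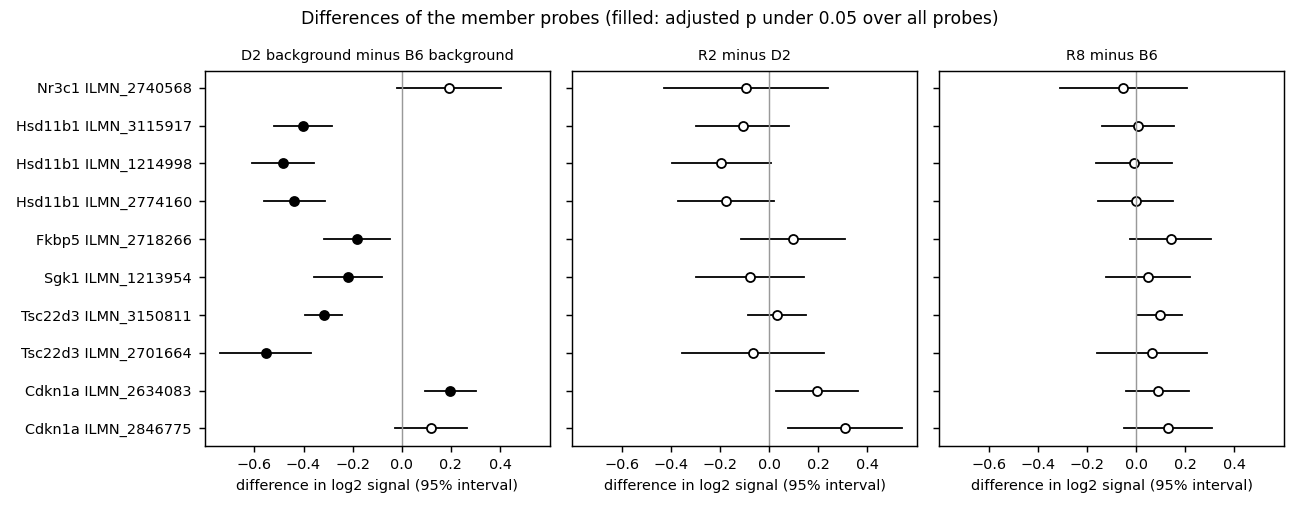
Difference in log2 signal of each tested probe (point) with its 95% interval (line) for the D2 background minus the B6 background, R2 minus D2 and R8 minus B6; filled points have an adjusted p under 0.05 over all probes. The 8 filled points all lie in the background contrast, 7 left of 0 and 1 right of it; the 7 include Tsc22d3 ILMN_2701664, which most D2-background arrays did not detect.

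The donor segments were set against their background strains to ask whether the chromosome 1 interval alters these genes. In R2 minus D2, 0 of the 10 probes passed (limma), where 0.494% of all probes did, and 2 had an unadjusted p under 0.05. Those were both Cdkn1a probes, with differences of 0.19 ± 0.08 (adjusted p = 0.260) and 0.31 ± 0.11 (adjusted p = 0.200). For ILMN_2846775 the log2 signal (lowest, median, highest) was 9.06, 9.31 and 9.47 in R2, against 8.54, 9.11 and 9.16 in D2 brains, so that the groups overlapped. Exact permutation tests (two-sided, unadjusted) of the 2 probes gave p = 0.013 and 0.037. The Hsd11b1 probes gave R2 minus D2 differences between -0.19 and -0.11, with 95% intervals that reached from -0.39 to 0.08. These values rested on single D2 arrays, since without D2 replicate 1 they were -0.016, -0.11 and -0.091, and without D2 replicate 4 they were -0.17, -0.26 and -0.25.

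In R8 minus B6, 0 of the 10 probes passed (limma), where 0.081% of all probes did, and 1 had an unadjusted p under 0.05. That was Tsc22d3 ILMN_3150811, at 0.10 ± 0.04 (unadjusted p = 0.041, adjusted p = 0.9996). Fkbp5 gave 0.14 ± 0.08 with an interval of -0.02 to 0.30, and Nr3c1 gave -0.05 ± 0.13 with an interval of -0.31 to 0.21. The 3 Hsd11b1 probes lay within 0.01 of 0, with 95% intervals inside -0.16 to 0.15, so that a change in R8 brains as large as the difference between backgrounds lay outside the interval.

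The effect of D2 alleles in the segment was compared between the 2 backgrounds as the difference of D2 minus R2 and R8 minus B6. The first exchanges 10.2 Mb and the second 1.1 Mb of chromosome 1. The background and the length of the segment therefore cannot be told apart in this contrast. None of the 10 probes passed (limma, 0 called), where 0.113% of all probes did. The 2 Cdkn1a probes had the smallest unadjusted p, 0.011 and 0.0047, with differences of -0.28 ± 0.10 and -0.44 ± 0.14 and an adjusted p of 0.498 for both.

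The members were then compared across mice of the same strain, as deviations from strain means, to ask whether target genes moved together from brain to brain. Among the 6 pairs of the 4 target genes (1 probe a gene), r lay between -0.22 and 0.18, and 0 pairs had a permutation p under 0.05. Fkbp5 gave r = 0.03 with Sgk1 (permutation p = 0.87, rho = 0.07), -0.11 with Tsc22d3 (p = 0.57, rho = -0.05) and 0.13 with Cdkn1a (p = 0.48, rho = 0.13). Without the 2 arrays farthest from the median of the first gene, Sgk1 and Tsc22d3 gave r = 0.46, against 0.18 over all arrays (p = 0.32). No pair of target genes thus passed at this number of mice, which does not show that the genes vary independently.

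Over all 15 pairs of the 6 genes, with the brightest probe standing for each gene, 2 had an unadjusted permutation p under 0.05. Fkbp5 gave r = -0.43 with Hsd11b1 (permutation p = 0.039, rho = -0.35) and r = -0.40 with Nr3c1 (permutation p = 0.039, rho = -0.35). With the other 2 Hsd11b1 probes Fkbp5 gave r = -0.36 and -0.38 (permutation p = 0.077 and 0.065). The same 2 probes gave r = 0.47 and 0.45 with Nr3c1 (permutation p = 0.016 and 0.027), against 0.26 for the brightest, and without D2 replicate 1 these were 0.28 and 0.24. Hsd11b1 ILMN_1214998 also gave r = -0.36 with Sgk1 (permutation p = 0.046) and -0.45 with Tsc22d3 ILMN_2701664 (permutation p = 0.022). Without D2 replicate 1 these 2 values were -0.47 and -0.44. Of all 45 pairs of tested probes, 9 had an unadjusted permutation p under 0.05, the pairs of Hsd11b1 probes with each other among them. Adjusted over all probes in limma the Fkbp5 associations had p = 0.326 and 0.344. Without D2 replicate 1, which was high for Hsd11b1 and Nr3c1 and low for Fkbp5, r was -0.24 and -0.22. Within strains, Fkbp5 and Nr3c1 gave r = 0.33 in R2 and -0.71 in D2 (n = 6 each, exact permutation p = 0.53 and 0.088), and -0.67 in R8 and -0.26 in B6 (n = 10 each, permutation p = 0.033 and 0.46). Of the 15 pairs, 1 kept the sign of r in all 4 strains. That was Fkbp5 with Hsd11b1, with r = -0.06 in R2 and -0.69 in D2 (n = 6 each, exact permutation p = 0.93 and 0.14) and -0.63 in R8 and -0.04 in B6 (n = 10 each, permutation p = 0.052 and 0.91). Of the 60 values within single strains 2 had an unadjusted p under 0.05.

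**Figure D3:**
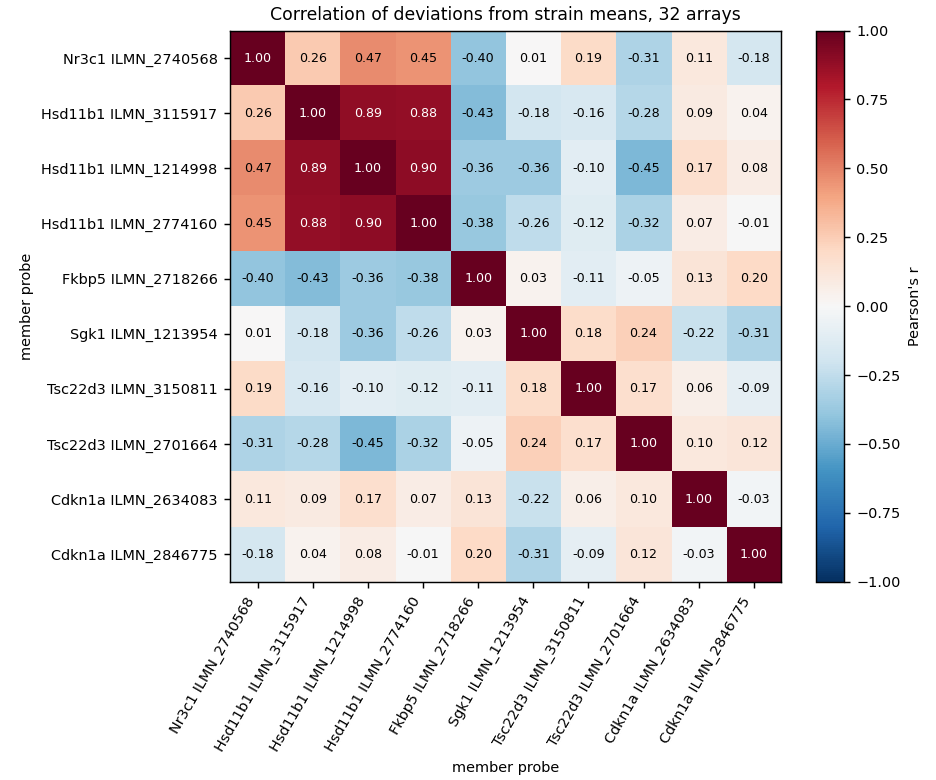
Pearson's r of the deviations from strain means for each pair of tested probes over 32 arrays. The 3 Hsd11b1 probes form a block with r of 0.88 to 0.90, and probes of different genes lie between -0.45 and 0.47.

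The level of each gene was also set against every other tested probe within strains. Nr3c1 was associated with 1298 probes (10.5%) and Hsd11b1 ILMN_3115917 with 643 (5.21%), its own other 2 probes among them. No probe of another member was called in either. Both counts rested on D2 replicate 1, since without it they were 6 and 21. The number of probes associated with Nr3c1 within strains also moved by over 1.5 times without R8 replicate 1 (852), B6 replicate 5 (802) or D2 replicate 6 (736), and that of probes associated with Hsd11b1 within strains without R8 replicate 10 (417). For Fkbp5, Sgk1, Tsc22d3 and Cdkn1a (the brightest probe of each) limma called 0 probes (0%), with 1469, 571, 568 and 796 probes at an unadjusted p under 0.05. The dim Tsc22d3 probe ILMN_2701664 was associated with 738 probes and the second Cdkn1a probe with 1, and neither count was recomputed without D2 replicate 1.

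The 10 probes most like Fkbp5 within strains, by the moderated test over 32 arrays, were of Csf2ra, Rasl10b, Eif4ebp1, Nr2c2ap, Rasip1, Thop1, Pak6 and Bcl11a, with r between 0.66 and 0.73, and of Tfrc and Ugt8a, with r of -0.65 and -0.65. Their adjusted p lay between 0.10 and 0.14, so none passed. Csf2ra encodes a receptor chain for granulocyte-macrophage colony-stimulating factor, Tfrc is the transferrin receptor that takes up iron, and Ugt8a makes the galactolipids of myelin.

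Fkbp5 was lower in brains with a higher mean level of oligodendrocyte or astrocyte markers. Its deviations gave r = -0.61 with the mean of 9 oligodendrocyte markers (permutation p = 0.00063, rho = -0.59 with p = 0.0011) and r = -0.63 with that of 9 astrocyte markers (permutation p = 0.00052, rho = -0.61 with p = 0.00079). Of the 66 relations of 6 genes with marker levels and array properties, these 2 had a Benjamini-Hochberg adjusted p under 0.05 (0.021 for both, and 0.038 for rho). Without the 2 arrays farthest from the median r was -0.50 and -0.59, and without D2 replicate 1 it was -0.57 and -0.54. Within strains, r with the oligodendrocyte markers was -0.67 in R2 and -0.90 in D2 (n = 6 each, exact permutation p = 0.14 and 0.0069) and -0.59 in R8 and -0.34 in B6 (n = 10 each, permutation p = 0.075 and 0.33). The astrocyte relation was -0.77 in R2 and -0.94 in D2 (n = 6 each, exact permutation p = 0.086 and 0.0042) and -0.60 in R8 and -0.01 in B6 (n = 10 each, permutation p = 0.069 and 0.99), so that it did not hold within B6. Taken singly, 0 of the 9 oligodendrocyte and 0 of the 9 astrocyte markers were called with Fkbp5 (limma). An unadjusted p under 0.05 was reached by 5 and 3 of them, and r was positive for 0 and 1. With the microglia markers Fkbp5 gave r = 0.12 (permutation p = 0.54), and 5 of the 8 were positive. The number of probes detected on an array moved the same way (r = -0.40, permutation p = 0.028), and its part in these relations was not tested.

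**Figure D4:**
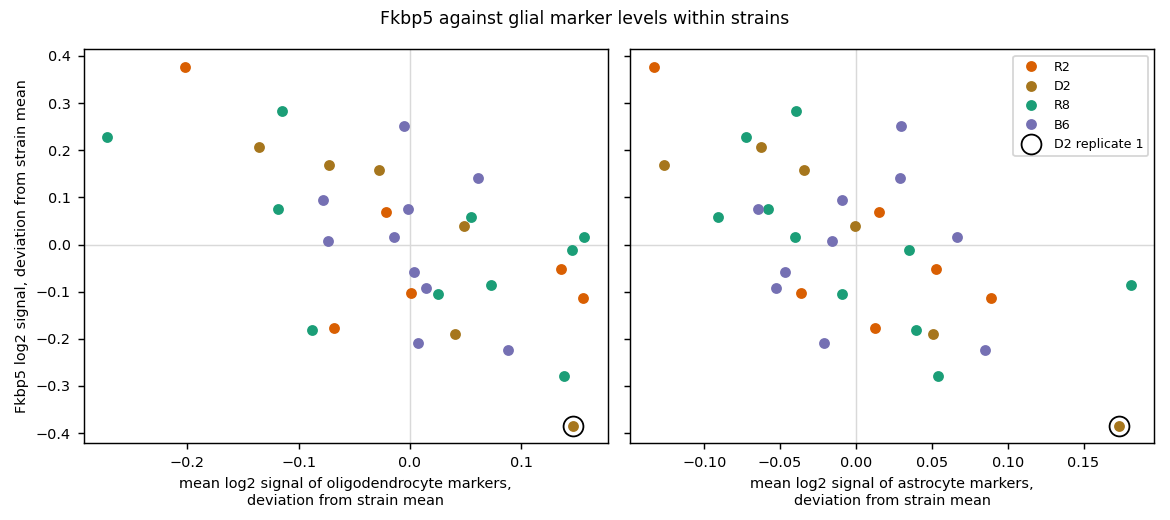
Deviation of Fkbp5 log2 signal from its strain mean (y) against the deviation of the mean log2 signal of 9 oligodendrocyte (left) and 9 astrocyte (right) markers (x), 1 point per array, coloured by strain. Fkbp5 is lower where either marker level is higher (r = -0.61 and -0.63), and the ringed array, D2 replicate 1, lies at the lower right of both plots.

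Other genes of the pathway were taken from lists. Of 30 other glucocorticoid-induced genes 24 were tested, and on the D2 background 10 were lower and 3 higher, where 13.1% of all genes (1 probe a gene) were lower and 16% higher. The median difference of the 24 genes was -0.11. Glul, glutamine synthetase of astrocytes, had a log2 signal (lowest, median, highest) of 11.80, 11.97 and 12.62 on the D2 background, against 12.45, 12.77 and 13.10 on the B6 background, and a difference of -0.74 ± 0.08 (adjusted p = 3.9e-09). Map3k6, a kinase of the stress-activated cascade, is among the 10 counted as lower. It was detected in 0 of 12 D2-background and 19 of 20 B6-background arrays. Taking the lowest detected signal of each D2-background array as its floor, Map3k6 was at least 1.21-fold lower, a bound that was not tested. Its fitted difference (limma, adjusted p = 9.5e-18) rests on D2-background values below detection. With the bound in place of the fitted value, the median difference of the 24 genes was -0.11. Fam107a, an actin-binding protein induced by stress, was at -0.34 ± 0.06 (adjusted p = 1.8e-05). Pdk4, which restrains pyruvate dehydrogenase, went the other way with 0.45 ± 0.08 (adjusted p = 2.6e-05). Between the parental strains alone 5 of the 24 genes were lower and 2 higher, where 10.4% of all genes were lower and 10.9% higher. In R2 minus D2 and in R8 minus B6, 0 of the 24 were called.

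**Figure D5:**
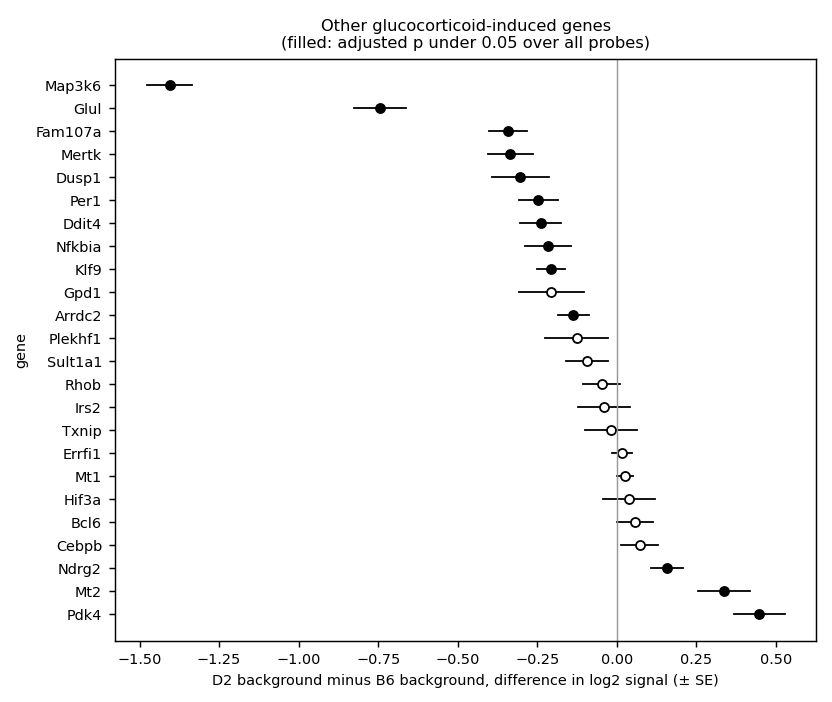
Difference in log2 signal between the D2 and B6 backgrounds (point) with its SE (line) for the tested genes of the list of other glucocorticoid-induced genes, filled where the adjusted p over all probes is under 0.05. Filled points are 10 left of 0 and 3 right of it; the Map3k6 point is a fitted value of a gene below detection in D2-background arrays.

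Lists around the receptor were counted in the same background contrast, in which 29.1% of all genes (1 probe a gene) were called in either direction. Of 12 chaperones and co-chaperones, 1 was lower on the D2 background, the inducible heat shock protein Hspa1a (-0.51 ± 0.08, adjusted p = 5.0e-06), while Fkbp4, the co-chaperone that competes with Fkbp5, was at -0.03 ± 0.05 (adjusted p = 0.68). Of 8 coregulators, 1 was higher, Ppargc1a (0.21 ± 0.05, adjusted p = 0.0014). Of 5 tested genes of steroid metabolism, 1 was higher, the mitochondrial protein Tspo (0.35 ± 0.06, adjusted p = 4.0e-05), and H6pd, which supplies the cofactor of Hsd11b1, was at -0.10 ± 0.06 (adjusted p = 0.23). Of 5 genes of the corticotropin-releasing system, 1 was higher, the binding protein Crhbp (0.32 ± 0.04, adjusted p = 4.6e-07). Among 10 relatives and substrates of Sgk1, the ubiquitin ligase Nedd4 was lower (-0.21 ± 0.05, adjusted p = 0.00055) and Ndrg2, a substrate, higher (0.16 ± 0.05, adjusted p = 0.013). Among 10 p53 targets and cell cycle inhibitors, 2 were called lower and 2 higher, and Cdkn1c, a relative of Cdkn1a, was at 0.34 ± 0.05 (adjusted p = 2.6e-06). Of the 2 called lower, Sesn2 was detected in 0 of 12 D2-background and 10 of 20 B6-background arrays, and against the lowest detected signal no lower level was established.

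Clock genes, immediate early genes and cell type markers were counted against the same 29.1%. Of 13 circadian clock genes 7 were lower and 3 higher, led by Bhlhe40 (-1.17 ± 0.07) and Per2 (-0.66 ± 0.07), and Per1, which glucocorticoids also induce, was at -0.25 ± 0.06 (adjusted p = 0.0019). Of 9 immediate early genes 3 were lower, among them Arc (-0.58 ± 0.12, adjusted p = 0.00028). Of 8 microglia markers 5 were lower and 1 higher, and their summed raw signal was 7751 to 13542 on the D2 background, against 9342 to 15585 on the B6 background. Raw sums, here and below, were not normalized, and the median raw signal of an array lay between 380.2 and 578.5. Of the microglia markers C1qb and C1qc did not overlap between backgrounds, and the others did. The share of all tested probes without overlap is not given here, so this is a description of the 2 genes only. Of 9 oligodendrocyte markers 4 were lower (sums 155114 to 226659, against 158929 to 224593 on the B6 background), of 9 astrocyte markers 1 was lower and 3 higher (120357 to 205656, against 128269 to 189044), and of 11 endothelial and mural markers 3 were lower (21735 to 37500, against 21941 to 37139). Of 7 neuron markers 1 was lower, of 5 choroid plexus markers 1 was lower, of 3 blood genes 1 was higher, and of 2 pituitary hormones 0 were called. The blood gene Hbb-b2 was detected in 12 of 12 D2-background and 4 of 20 B6-background arrays. The choroid plexus marker Folr1 was detected in 3 of 12 D2-background and 17 of 20 B6-background arrays. The shares of immediate early genes and of endothelial and mural markers were near that of all genes, and that of neuron markers was below it. The part of these groups in the lower Hsd11b1, Tsc22d3, Sgk1 and Fkbp5 signals was not tested.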

How the data were processed

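Arrays held the whole-brain RNA of single mice. The deposited non-normalized table gives the average signal intensity and a detection p-value per probe and array. The deposited value table holds the authors' normalized intensity of the same arrays (lumi, linear scale), used as an alternative after log2. All per-array columns matched a label. Groups came from the labels, and the members and lists were chosen with earlier results of these data known. Intensities were background corrected and quantile normalized over 32 arrays (neqc, limma 3.58.1, R 4.3.3), with an offset of 16 before log2, which understates differences of dim probes. A probe entered if 6 or more arrays had detected it (p under 0.01), and 12351 probes went into a fit of 4 strains (lmFit, eBayes), with Benjamini-Hochberg adjustment over them and a threshold of 0.05. The background contrast weights both strains of a background equally. Associations within strains added the level of a member to the strain terms; r used deviations from strain means, with 100000 permutations within strains, or all of them in groups of 6. The fits were tested on simulated data. The number of arrays limits the precision, and mice of a strain are the replicates. Probe symbols came from the platform annotation (23978 probes with 1 symbol, 1719 with none), and a gene with several tested probes is given by the brightest in lists. Named are all members, the 10 probes most like Fkbp5, and the list genes with the smallest p, up to 4 a list. Fkbp4, H6pd and Per1 were chosen after their values were seen. Gene positions and promoter windows are those of RefSeq (GRCm38.p6), whose reference is the B6 strain. Levels of different probes were not compared. Alternatives were other normalizations, offsets and detection filters, the authors' values, fits of 2 strains, blocks of 8 running numbers from the labels, a replicate block, permutation tests and each array left out. Blocks of 8 neighbouring columns of the table, and correlations without D2 replicate 1, were added after seeing the data.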

Additional observations from a re-analysis of the deposited data

Results flagged for a closer look

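Of 40 groups of 6 or 10 arrays, 1 held an array far from the others, and chance alone gives about 1 in 20. Sgk1 in D2 replicate 5 was at 13.09 on the log2 scale, below the nearest D2 array at 13.42, and this gap was 0.636 of the range of the 6 D2 arrays. Without D2 replicate 5 the background difference of Sgk1 stayed called.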

How the results depend on the processing

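Hsd11b1, Tsc22d3 ILMN_3150811 and ILMN_2701664, Sgk1 and Cdkn1a ILMN_2634083 stayed called between backgrounds without any 1 array, and Sgk1 and Cdkn1a lost the call only with the parental strains alone. Fkbp5 (adjusted p = 0.036) lost it with median scaling (-0.17, adjusted p = 0.051), blocks of 8 running numbers (-0.15, 0.105), no detection filter (-0.18, 0.063), the parental strains alone (-0.16, 0.249) and the replicate block (-0.17, 0.060). Replicate numbers did not pair the arrays (r of same-numbered deviations -0.29 to 0.31 for R8 and B6, -0.06 to 0.16 for R2 and D2), and the block changed no other member call. Member probes called between backgrounds were 5 of 10 with the parental strains alone and 7 to 8 without 1 array, and other glucocorticoid-induced genes lower were 5 and 8 to 10. The count of probes called, R2 minus D2 (61), was 40 with running-number blocks, 37 with no filter, 16 with only both strains in the fit, 16 with both normalized alone, and 32 to 127 without 1 array. Counts of probes associated with Nr3c1 within strains and of probes associated with Hsd11b1 within strains were 143 and 184 with running-number blocks, 1061 for Hsd11b1 with median scaling, and 6 to 1495 and 21 to 885 without 1 array. The count of probes associated with Fkbp5 within strains was 2 with column blocks and 0 to 3 without 1 array. Values near 0 turned sign. With running-number blocks, Nr3c1 ILMN_2740568, R8 minus B6, was 0.05, Hsd11b1 ILMN_1214998, R8 minus B6, 0.041, and Hsd11b1 ILMN_2774160, R8 minus B6, 0.048. Without 1 array, the R8 minus B6 range was -0.11 to 0.014 for Nr3c1, -0.0089 to 0.034 for Hsd11b1 ILMN_3115917, -0.031 to 0.031 for ILMN_1214998 and -0.025 to 0.029 for ILMN_2774160, and the R2 minus D2 range was -0.17 to 0.057 for Nr3c1 and -0.15 to 0.026 for Tsc22d3 ILMN_2701664. The r with Fkbp5 was 0.10 for Tsc22d3 ILMN_3150811 with median scaling and -0.021 for Sgk1 without the 2 arrays farthest from the median, and without 1 array -0.054 to 0.079 for Sgk1, -0.24 to 0.028 for Tsc22d3 ILMN_3150811 and -0.16 to 0.037 for ILMN_2701664. Normalizing each pair of strains alone gives no background contrast. The cause of these changes was not tested. Signal near background limits Tsc22d3 ILMN_2701664, Map3k6, Sesn2, Hbb-b2 and Folr1.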
